A study of Mus musculus with 6 samples.

Results

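The respiratory chain and ATP synthase genes were examined in RNA-seq of whole ovaries from 3 WT and 3 Bnc1tr/tr mice. Members were taken by name. Nuclear members were the genes whose symbols begin with Ndufa, Ndufb, Ndufc, Ndufs or Ndufv and a digit, with Uqcr, with Cox4 to Cox8 or with Atp5, pseudogene rows left out, and mitochondrial members were the 13 protein genes of the mitochondrial DNA. A member needed 10 or more counts over the 6 ovaries. This gave 78 nuclear and 13 mitochondrial genes, 91 of the 44788 rows of the count table. Of 80 nuclear names, Cox7b2 (1 count) and Cox8c (6 counts) fell below the minimum.

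The study's methods place the mutant line, and the WT mice bred with it, on a C57BL/6 J background. Both genotypes were 8 weeks old by the labels, which name no treatment. Bnc1tr/tr mice are homozygous for a truncating frameshift in Bnc1, which encodes basonuclin 1, a zinc finger protein of oocytes and surface epithelia. The change is carried in every cell of the animal, so a difference in the ovary need not arise in oocytes. The study's methods describe littermate comparisons, but the labels do not give the litter of each ovary. They gave neither the oestrous stage of each ovary nor a statement that the ovaries came from separate animals, so p-values measure the spread between these samples.

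The respiratory chain passes electrons from NADH and succinate through complexes I, II, III and IV to oxygen and pumps protons across the inner mitochondrial membrane, and ATP synthase, complex V, uses the returning protons to make ATP. Most subunits are encoded in the nucleus and imported, whereas a small set of core subunits of complexes I, III, IV and V is encoded in the mitochondrial DNA, transcribed there from long precursors that are cut at the tRNAs lying between the genes. Steroid-producing cells, the corpus luteum above all, are rich in mitochondria because the first step of steroid synthesis takes place inside them.

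Totals were between 25247770 and 34406296 counts per ovary. Normalized values below are CPM, read counts brought to a common library size after TMM scaling, and give the level of a gene in an ovary. Differences are log2 fold changes of Bnc1tr/tr over WT with their standard errors, and a gene was called where edgeR's quasi-likelihood test, adjusted by Benjamini-Hochberg over the 19423 genes tested, gave a p under 0.05. By that rule 7.06% of all genes tested were called, 4.19% lower and 2.88% higher in Bnc1tr/tr. Bnc1 itself had 375, 444 and 381 counts in WT and 527, 355 and 326 counts in Bnc1tr/tr, with overlapping ranges. A frameshift need not remove the transcript, so these counts do not check the labels. The summed level of 14 corpus luteum markers was 23916 to 28575 CPM in WT and 7705 to 13275 CPM in Bnc1tr/tr. Of the 14, 10 were called lower and 1, Abca1, was higher without overlap and not called. Cyp11a1 and Hsd3b1, steroid synthesis genes, made up most of the sum, at WT means of 10158 and 8430 CPM. The other marker sums overlapped between genotypes except for theca and stroma, at 1774 to 2054 CPM in WT and 2118 to 2581 CPM in Bnc1tr/tr. Of 12 granulosa markers 7 lay above 0 and 2 were called higher, while Foxl2 was lower without overlap and not called. Of 12 oocyte markers 11 lay above 0 and 3 were called higher. Bnc1tr/tr replicate 3 stood apart in oviduct markers, with a sum of 554 CPM against 16.4 to 155 CPM in the other ovaries. In whole ovaries, fewer luteal cells, less RNA per luteal cell and changes in other steroid-producing cells cannot be told apart. The part of this shift in the results below was not tested.

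The nuclear genes lay mostly below 0 and the mitochondrial genes mostly above. Of the 77 nuclear genes tested, 58 had a log2 fold change below 0, with a median of -0.11, and 3 were called, all lower. The nuclear median was -0.02 without Bnc1tr/tr replicate 1 and -0.01 with library size alone, each with 40 of 77 below 0. Of the 13 mitochondrial genes, 11 had a log2 fold change above 0, with a median of 0.31, and the 1 that was called, ND3, was lower. The median over all genes tested was 0.02. The share of called genes was 3 of 77 and 1 of 13, near the background of 7.06%, so most single members did not pass the test.

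The summed counts were compared within each ovary. The 78 nuclear genes held 1.16%, 1.21% and 1.10% of all counts in WT replicates 1, 4 and 7, and 1.03%, 1.14% and 1.17% in Bnc1tr/tr replicates 1, 2 and 3. The 13 mitochondrial genes held 1.53%, 1.72% and 1.51% in WT and 1.61%, 2.15% and 2.25% in Bnc1tr/tr. Both shares overlapped between genotypes, since Bnc1tr/tr replicate 1 had the lowest nuclear share of all and a mitochondrial share inside the WT range. The ratio of mitochondrial to nuclear counts, which does not depend on scaling between libraries, was 1.32, 1.43 and 1.37 in WT and 1.56, 1.89 and 1.92 in Bnc1tr/tr. It was higher in each Bnc1tr/tr ovary than in any WT ovary, with means of 1.37 ± 0.0555 and 1.79 ± 0.20 (SD, n = 3 each), a 1.30-fold difference that stayed between 1.26-fold and 1.39-fold when any ovary was left out. It is a description over chosen genes and carries no test. Bnc1tr/tr replicate 3, the ovary with the high oviduct markers, had the highest mitochondrial share and the highest ratio, and without it the ratio differed 1.26-fold and the mitochondrial median was 0.21. The part of oviduct RNA in the result was not tested. With COX1, the most counted mitochondrial gene, left out of the sum it was 1.32-fold.

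**Figure D1:**
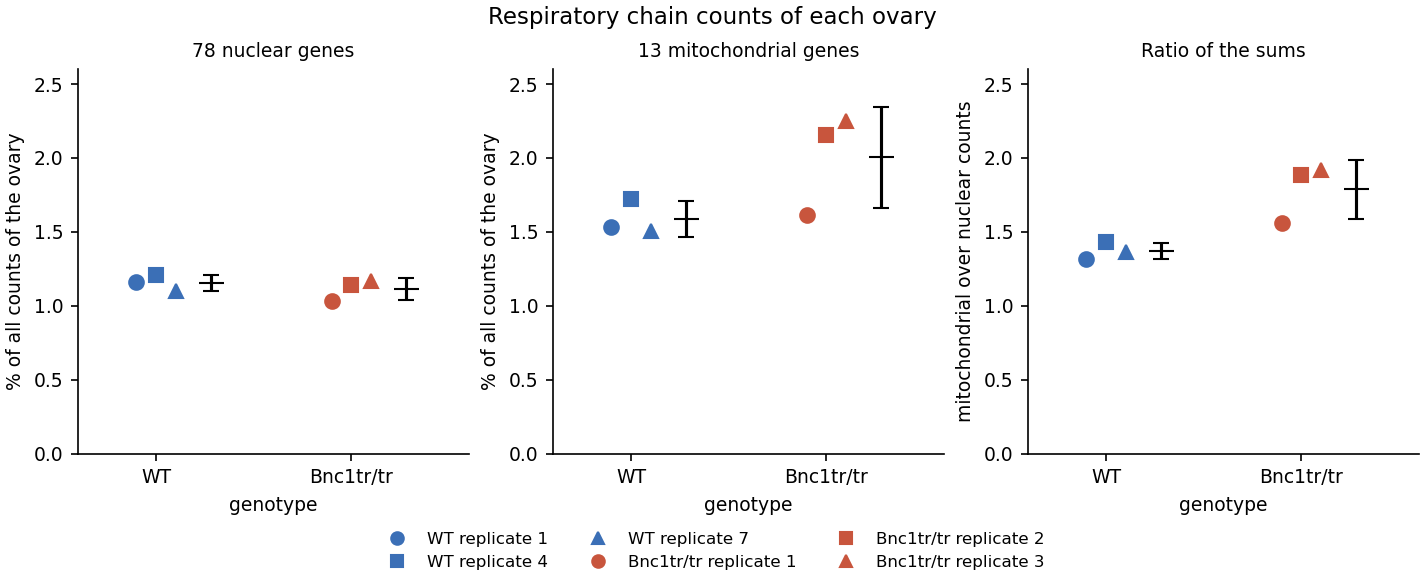
Percent of all counts of an ovary held by the 78 nuclear genes (left) and by the 13 mitochondrial genes (middle), and the ratio of the mitochondrial to the nuclear sum (right), with 1 point per ovary and mean ± SD beside the points. The shares overlap between genotypes, while the ratio is 1.32 to 1.43 in WT and 1.56 to 1.92 in Bnc1tr/tr.

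The ratio was also taken complex by complex, with each nuclear gene placed by its name. For complex V, ATP6 and ATP8 over the nuclear ATP synthase genes gave 0.105, 0.117 and 0.108 in WT and 0.153, 0.197 and 0.193 in Bnc1tr/tr, the widest separation of the complexes at 1.65-fold. For complex III, where CYTB is the only mitochondrial subunit, the means were 1.77 ± 0.104 and 2.44 ± 0.284 (SD, n = 3 each), and for complex IV they were 4.21 ± 0.0935 and 5.34 ± 0.449, neither with overlap. For complex I they were 1.42 ± 0.114 and 1.76 ± 0.202, and the ranges met, since the highest WT ovary had 1.54 and the lowest Bnc1tr/tr ovary 1.53. The absolute size of these ratios depends on gene lengths and numbers, so only the genotypes are compared.

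Among the mitochondrial genes, ND3 was the exception. ND3 encodes a small membrane subunit of complex I and lies at chrM:9459-9806 on the plus strand of GRCm38, in the stretch between COX3 and ND4L, with a tRNA gene on each side. The first 300 of its 348 bases are shown because it was the single mitochondrial member past the threshold. ATP8 and ND4L, the shortest of the 13 genes and those with the highest fitted increases, are shown whole. Capitals mark the bases that a gene shares with the next one on the same strand, 43 bases of ATP8 that also begin ATP6 and 7 bases of ND4L that also begin ND4, and ND3 shares none.
ND3, chrM:9459-9758: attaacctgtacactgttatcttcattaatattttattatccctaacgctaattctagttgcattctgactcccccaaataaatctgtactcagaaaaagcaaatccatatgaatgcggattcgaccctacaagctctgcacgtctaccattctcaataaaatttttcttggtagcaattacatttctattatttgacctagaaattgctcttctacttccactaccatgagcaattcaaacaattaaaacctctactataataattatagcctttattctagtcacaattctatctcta
ATP8, chrM:7766-7969: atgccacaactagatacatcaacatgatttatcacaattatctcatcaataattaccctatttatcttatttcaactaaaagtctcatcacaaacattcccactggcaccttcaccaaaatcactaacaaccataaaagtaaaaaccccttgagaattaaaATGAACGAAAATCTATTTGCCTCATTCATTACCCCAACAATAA
ND4L, chrM:9877-10173: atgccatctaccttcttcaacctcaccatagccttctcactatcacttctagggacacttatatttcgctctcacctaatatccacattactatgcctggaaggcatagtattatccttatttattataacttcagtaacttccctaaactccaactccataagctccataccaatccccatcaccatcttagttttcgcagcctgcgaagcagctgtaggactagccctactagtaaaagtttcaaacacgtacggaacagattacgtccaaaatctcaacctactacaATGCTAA

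ND3 had 58.5, 67.4 and 51.1 CPM in WT and 23.3, 32.8 and 30.2 CPM in Bnc1tr/tr. All 3 Bnc1tr/tr ovaries were below all WT ovaries, and the level was 2.05-fold lower (log2 fold change -1.04 ± 0.15, adjusted p = 0.00921 by edgeR's quasi-likelihood test). The raw counts behind these values were 1573, 2230 and 1483 in WT and 654, 853 and 858 in Bnc1tr/tr. Without WT replicate 4 the adjusted p was 0.0580, and under every other alternative tried the call held.

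The difference was also set against the neighbours of ND3. Per 1000 counts of ND4L, ND3 had 528, 612 and 604 counts in WT and 208, 186 and 179 in Bnc1tr/tr, and per 1000 counts of COX3 it had 81.6, 88.9 and 69.3 in WT and 29.3, 32.7 and 31.0 in Bnc1tr/tr. Within the mitochondrial protein counts, ND3 held 0.366%, 0.376% and 0.332% in WT and 0.149%, 0.157% and 0.140% in Bnc1tr/tr. These ratios within an ovary separated the genotypes with a wide gap, and they do not depend on library scaling. The 2 tRNA genes that flank ND3 had too few counts for the test, TrnG with 3, 8 and 2 counts in WT and 0 in each Bnc1tr/tr ovary, which allows up to 3 counts in each, and TrnR with 7, 8 and 1 counts in WT and 0, 2 and 2 in Bnc1tr/tr.

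**Figure D2:**
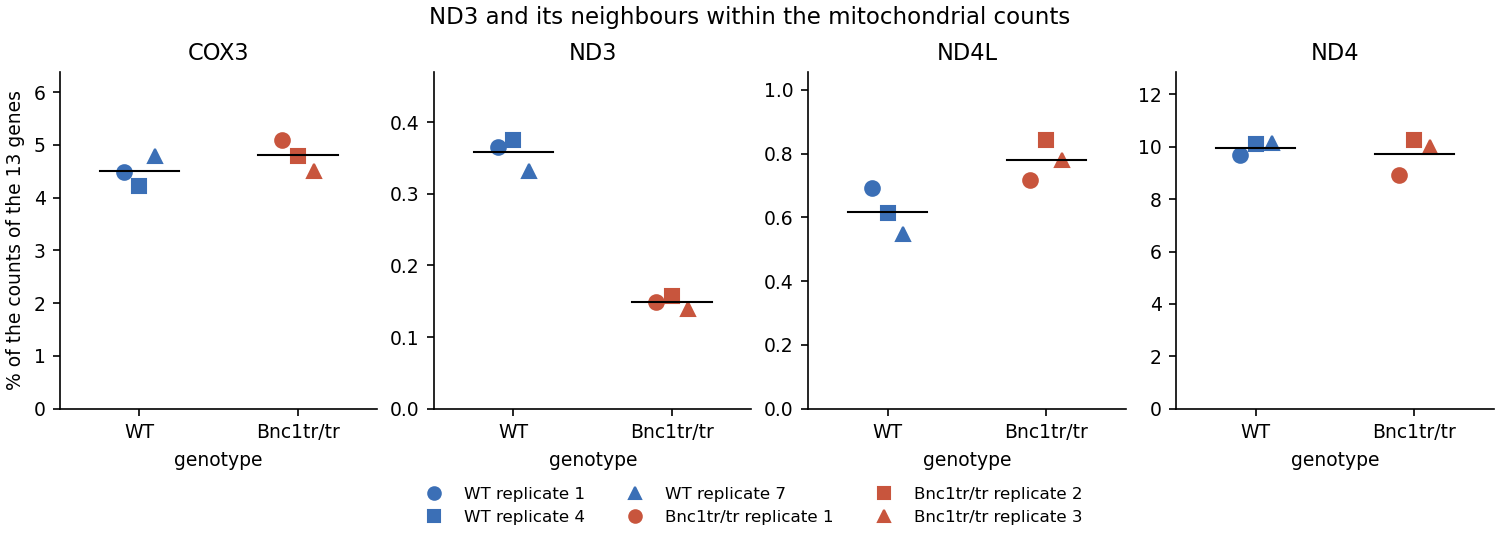
Percent of the counts of the 13 mitochondrial protein genes that fell on ND3, on COX3 before it and on ND4L and ND4 after it, with 1 point per ovary and a line at each mean. ND3 is 0.332% to 0.376% in WT and 0.140% to 0.157% in Bnc1tr/tr, while COX3 and ND4 overlap and ND4L is higher in Bnc1tr/tr.

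The ATP synthase genes of the mitochondrial DNA came next. ATP6, which encodes the proton channel subunit, had 456, 518 and 432 CPM in WT and 564, 721 and 739 CPM in Bnc1tr/tr, without overlap (log2 fold change 0.53 ± 0.13, adjusted p = 0.0521 by edgeR's quasi-likelihood test). ATP8, a short accessory subunit read from the same bicistronic transcript, had 53.3, 83.7 and 64.5 CPM in WT and 75.2, 131 and 131 CPM in Bnc1tr/tr (log2 fold change 0.74 ± 0.24, adjusted p = 0.110). The ranges of ATP8 overlapped, because Bnc1tr/tr replicate 1 lay below WT replicate 4. Reads in the stretch shared by ATP8 and ATP6, and in that shared by ND4L and ND4, could have been given to either gene or to none, and how the counter treated them is not given in the sources used here.

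The cytochrome c oxidase genes, which form the catalytic core of complex IV, were higher by less. COX3 had 717, 758 and 738 CPM in WT and 795, 1003 and 976 CPM in Bnc1tr/tr (log2 fold change 0.33 ± 0.11), and COX2 had 690, 662 and 702 CPM in WT and 735, 851 and 975 CPM in Bnc1tr/tr (0.32 ± 0.12). Neither overlapped and neither was called (adjusted p = 0.119 and 0.145 by edgeR's quasi-likelihood test). COX1, at 6254 to 7308 CPM in WT and 6439 to 8878 CPM in Bnc1tr/tr, overlapped. It held 40.6% to 42.0% of the mitochondrial protein counts in WT and 38.9% to 41.3% in Bnc1tr/tr.

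CYTB, a haem-carrying subunit of complex III, had 1959 to 2336 CPM in WT and 2056 to 2979 CPM in Bnc1tr/tr, with overlap (log2 fold change 0.31 ± 0.16, adjusted p = 0.271). The membrane subunits of complex I were uneven. ND5 had 918, 1042 and 896 CPM in WT and 1045, 1425 and 1430 CPM in Bnc1tr/tr, which did not overlap by a narrow margin (0.45 ± 0.14, adjusted p = 0.102). ND4L, with 111, 110 and 84.7 CPM in WT and 112, 177 and 169 CPM in Bnc1tr/tr, was likewise separated only narrowly (0.58 ± 0.19, adjusted p = 0.106). For both genes Bnc1tr/tr replicate 1 lay just above the highest WT ovary and the other Bnc1tr/tr ovaries lay well above it. ND4 differed by 0.21 ± 0.18, ND1 by 0.06 ± 0.15 and ND2 by 0.06 ± 0.18 on the log2 scale, all with overlap.

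ND6, the only protein gene on the other strand, had 1.69 to 3.23 CPM over the 6 ovaries and a log2 fold change of -0.11 ± 0.33. Per kilobase it was the lowest of the 13, at 4.65 CPM per kilobase in WT against 4374 for COX1. In all, 5 mitochondrial genes were higher without overlap and 1 was lower without overlap, where 15.0% and 15.8% of all genes tested were so, and 30.8% in either direction. At an unadjusted p under 0.05, 6 of the 13 were higher and 1 lower, beside 11.9% and 12.3% of all genes.

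**Figure D3:**
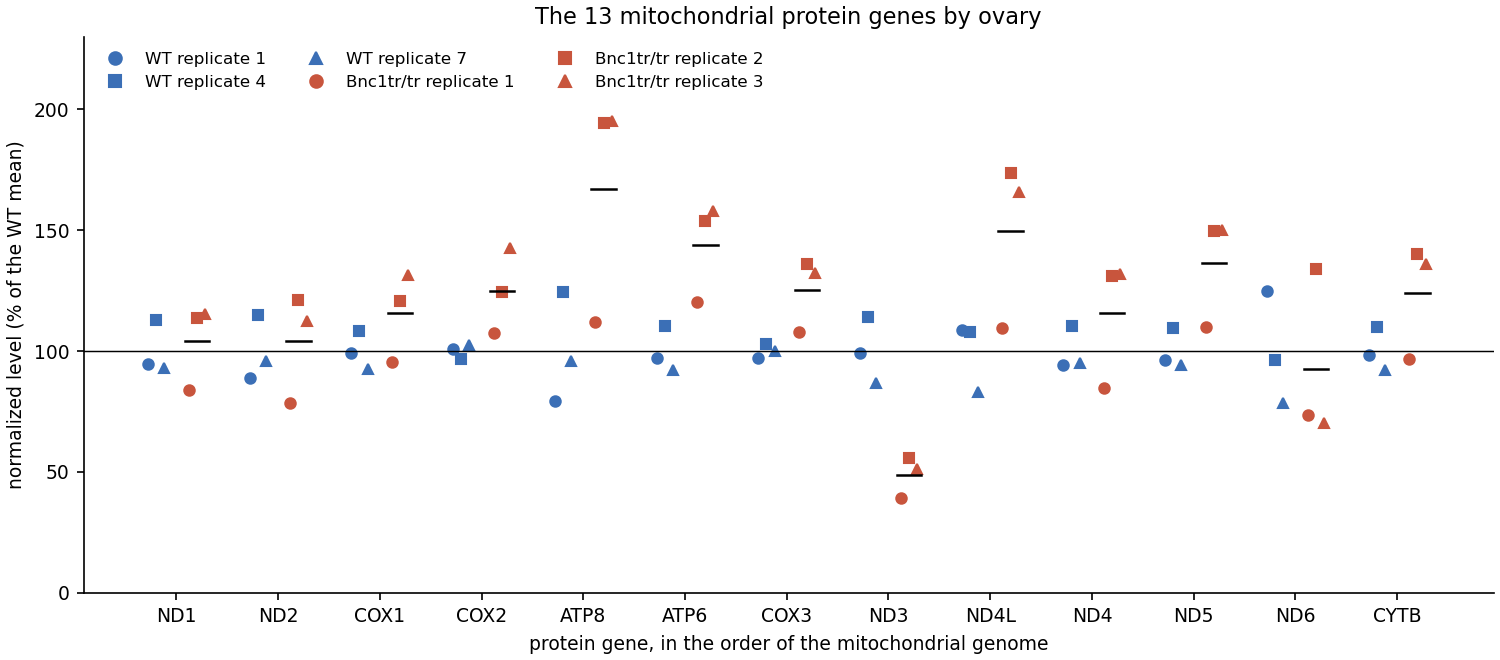
Normalized level of each of the 13 mitochondrial protein genes in each ovary, as percent of the mean of the 3 WT ovaries, in the order of the mitochondrial genome, with a short black line at the Bnc1tr/tr mean. ND3 is the one gene with all Bnc1tr/tr ovaries below all WT ovaries, and Bnc1tr/tr replicate 1 has the lowest or nearly the lowest Bnc1tr/tr point of every gene.

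Bnc1tr/tr replicate 1 had lower mitochondrial levels than the other Bnc1tr/tr ovaries for 12 of the 13 genes, all except ND6. Without it, 6 mitochondrial genes were called, namely ATP8, ATP6, ND5, COX3 and ND4L as higher and ND3 as lower, and without WT replicate 4 none was. Of the DESeq2 test's 5 calls, ATP8, ATP6, ND5 and ND4L were higher and ND3 lower. The main fit called 7.06% of all genes tested, which is not the share of these other fits. Over all genes, fewer were called with any ovary dropped and more by DESeq2, as given at the end. So the number of mitochondrial genes past the threshold depended on which ovary and which test were used, while the log2 fold change of ND3 was below 0 in each.

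The ribosomal and transfer RNAs of the mitochondrial DNA were read from the same fit. Rnr1, the RNA of the small mitochondrial ribosomal subunit, had 613, 420 and 266 CPM in WT and 171, 208 and 187 CPM in Bnc1tr/tr and was called lower (log2 fold change -1.20 ± 0.27, adjusted p = 0.0395 by edgeR's quasi-likelihood test). Rnr2, the RNA of the large subunit, had 903, 569 and 318 CPM in WT and 266, 331 and 277 CPM in Bnc1tr/tr, with overlap, and was not called (adjusted p = 0.102). Both spread widely among WT ovaries, in the same order as the nuclear ribosomal RNA row Rn18s-rs5, which held 3.47%, 1.37% and 0.578% of WT counts and 0.680%, 0.638% and 0.463% of Bnc1tr/tr counts. The part of ribosomal RNA carried into the libraries in these differences was not tested.

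The mitochondrial tRNA rows together had 762, 967 and 849 counts in WT and 394, 539 and 581 counts in Bnc1tr/tr. These are raw counts, and the totals of all counts were also lower in every Bnc1tr/tr ovary than in any WT ovary. TrnM made up most of each sum. TrnI, with 49, 56 and 50 counts in WT and 21, 22 and 22 in Bnc1tr/tr (log2 fold change -1.14 ± 0.23, adjusted p = 0.0302 by edgeR's quasi-likelihood test), and TrnM, with 540, 642 and 546 counts in WT and 231, 348 and 345 in Bnc1tr/tr (-0.79 ± 0.18, adjusted p = 0.0402), were called lower. Both lie between ND1 and ND2, and neither overlapped between genotypes. Over all genes tested, 4.19% were called lower, and most of the tRNA rows had too few counts for the test. TrnL1, the tRNA gene with the second highest counts, had 82, 121 and 140 counts in WT and 100, 84 and 142 in Bnc1tr/tr, with overlap (0.03 ± 0.26).

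Among nuclear complex I genes, placed by name and so with Ndufa4 and Ndufa4l2, 37 were tested. Of these, 2 were called lower, Ndufs1 and Ndufa4l2, beside 4.19% of all genes tested. The median log2 fold change was -0.12. The 7 core subunits, which carry the flavin and iron-sulphur centres that pass electrons from NADH to coenzyme Q, were all below 0 with a median of -0.23, and 5 of them were lower without overlap between genotypes, where 15.8% of all genes tested were so. Ndufs1, the largest core subunit, at chr1:63143596-63176833 on the minus strand of GRCm38, had 88.6, 98.6 and 92.7 CPM in WT and 74.7, 73.0 and 75.9 CPM in Bnc1tr/tr (log2 fold change -0.32 ± 0.08, adjusted p = 0.0461 by edgeR's quasi-likelihood test). The 3 Bnc1tr/tr ovaries were close together and below every WT ovary. The call was lost with library size alone (adjusted p = 0.113), without the filter on low counts (0.0683) and when any 1 ovary was left out.

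Of the other core subunits, Ndufs8 had 138, 164 and 122 CPM in WT and 92.4, 106 and 109 CPM in Bnc1tr/tr (adjusted p = 0.0682 by edgeR's quasi-likelihood test). Every Bnc1tr/tr ovary was below every WT ovary. Ndufv2 and Ndufs7, at -0.01 ± 0.11 and -0.03 ± 0.08 on the log2 scale, were the core subunits with the smallest differences. The 28 accessory subunits, which surround the core, had a median of -0.11, and 7 were lower without overlap, beside the same 15.8%. None of them was called by edgeR's quasi-likelihood test, and 5 were lower at an unadjusted p under 0.05, beside 12.3% of all genes. The DESeq2 test called 2, Ndufv3 and Ndufa9, at -0.41 ± 0.11 and -0.35 ± 0.10 in edgeR's fit. Ndufa7, the accessory subunit with the highest level per kilobase in WT, had 172 to 202 CPM in WT and 171 to 180 CPM in Bnc1tr/tr, with overlap.

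Ndufa4l2 was the called member with the largest nuclear difference. It is a paralogue of Ndufa4, whose protein was named as a complex I subunit and is now placed in complex IV, and it is known as a gene induced by low oxygen. Ndufa4l2, at chr10:127514967-127517154 on the plus strand of GRCm38, had 10.6, 12.6 and 15.8 CPM in WT and 5.51, 8.04 and 7.23 CPM in Bnc1tr/tr, without overlap and 1.88-fold lower (log2 fold change -0.91 ± 0.20, adjusted p = 0.0386 by edgeR's quasi-likelihood test). The call was lost without WT replicate 4 or 7 or without Bnc1tr/tr replicate 1 or 3 (adjusted p = 0.138, 0.126, 0.0721 and 0.0981). Ndufa4 itself had 141, 135 and 128 CPM in WT and 96.0, 153 and 143 CPM in Bnc1tr/tr, on both sides of the WT range. Per kilobase Ndufa4l2 was far below Ndufa4, at 13.9 against 216 CPM per kilobase in WT.

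Complex III had 8 nuclear genes with Uqcr names tested and 1 called, where 7.06% of all genes tested were called. Cyc1, a further nuclear gene of complex III, lay outside the name rule and so outside the ratio for this complex. It was read with the electron carriers, lower without overlap and not called (-0.22 ± 0.10, adjusted p = 0.218 by edgeR's quasi-likelihood test). Uqcrfs1 encodes the Rieske iron-sulphur protein, which takes electrons from reduced coenzyme Q, and lies at chr13:30540308-30545362 on the minus strand of GRCm38. It had 131, 136 and 128 CPM in WT and 85.9, 98.8 and 99.0 CPM in Bnc1tr/tr. The groups were far apart relative to their spread, at 132 ± 4.37 and 94.6 ± 7.56 CPM (SD, n = 3 each), and the level was 1.39-fold lower (log2 fold change -0.48 ± 0.09, adjusted p = 0.0199 by edgeR's quasi-likelihood test). The call was lost without WT replicate 1, 4 or 7 or Bnc1tr/tr replicate 3 (adjusted p = 0.0622, 0.108, 0.0634 and 0.0539).

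The core proteins of complex III, Uqcrc1 and Uqcrc2, differed by -0.19 ± 0.07 and -0.17 ± 0.10 on the log2 scale and were not called. The 5 small accessory subunits had a median of -0.06, and 1 of them, Uqcr11, did not overlap. Uqcr10, the nuclear member of complex III with the highest level per kilobase, had 116 to 172 CPM in WT and 121 to 151 CPM in Bnc1tr/tr, which overlapped fully.

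**Figure D4:**
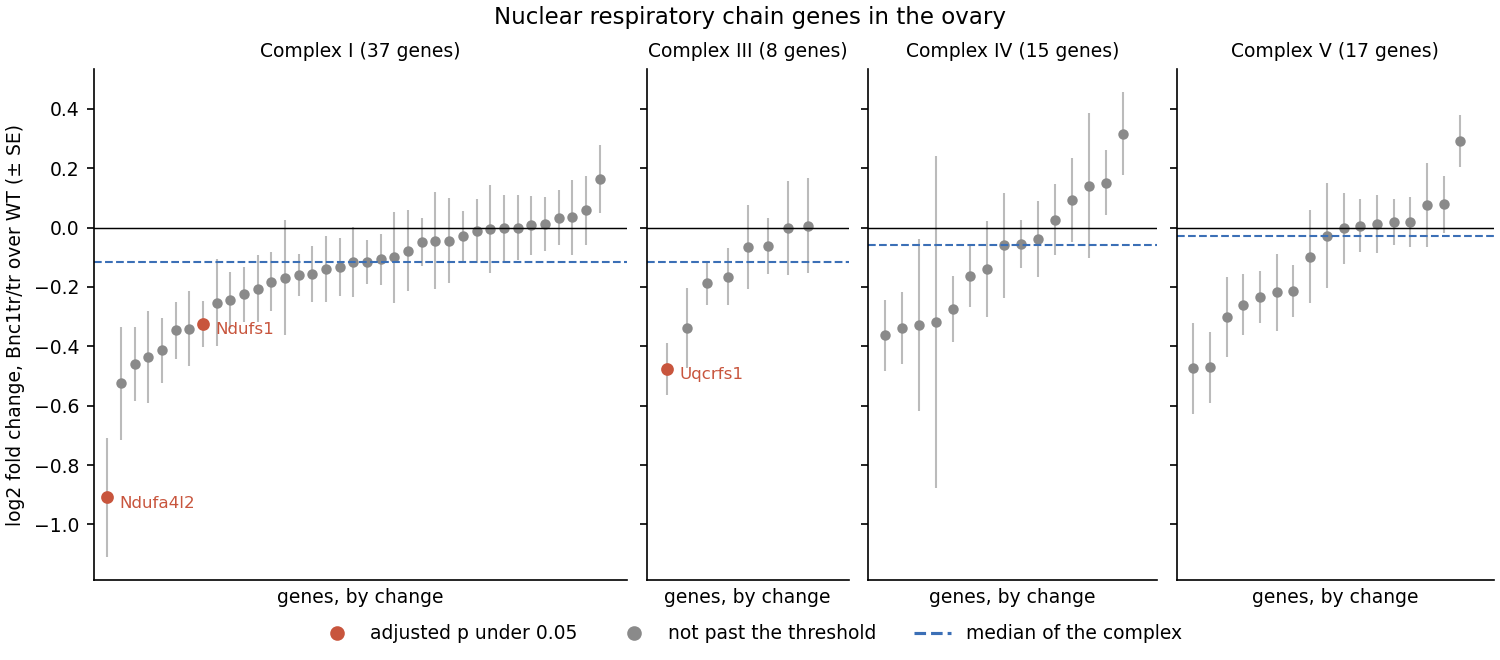
Log2 fold change of Bnc1tr/tr over WT, with its standard error, for the 77 nuclear genes tested, ordered by size within each complex, with a dashed line at the median of the complex. The 3 called genes, Ndufa4l2, Ndufs1 and Uqcrfs1, are all below 0, and the medians run from -0.12 in complexes I and III to -0.03 in complex V.

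In complex IV, without Ndufa4 and Ndufa4l2, 15 nuclear genes were tested (median log2 fold change -0.06). None was called by edgeR's quasi-likelihood test, DESeq2 or limma-voom. There were 3 lower and none higher at an unadjusted p under 0.05, beside 12.3% and 11.9% of all genes. The complex is built with common or with tissue-specific isoforms of several subunits, and in both genotypes the common ones were higher per kilobase. Cox4i1, the common isoform of the regulatory subunit, had 698 CPM per kilobase in WT and 672 in Bnc1tr/tr, and Cox4i2, the isoform known from lung and from low oxygen, had 12.95 and 14.3. Neither differed beyond the spread between ovaries. Cox6a1 had 427, 451 and 372 CPM in WT and 283, 361 and 343 CPM in Bnc1tr/tr (log2 fold change -0.34 ± 0.12, adjusted p = 0.137), without overlap, and its heart and muscle counterpart Cox6a2 had 8 to 32 counts per ovary.

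Cox8a, the common form of another small subunit, had 233, 226 and 183 CPM in WT and 149, 171 and 180 CPM in Bnc1tr/tr (-0.36 ± 0.12, adjusted p = 0.113), separated by a narrow gap. Cox8b, its muscle and brown fat form, had 8, 2 and 1 counts in WT and 8, 5 and 19 counts in Bnc1tr/tr and was too low to be tested. It was the one member that passed the count minimum but not the filter for the test. Cox6b1 had 173 to 222 CPM in WT and 137 to 202 CPM in Bnc1tr/tr, and Cox6b2, the form known from testis, had 12.3, 12.4 and 10.5 CPM in WT and 12.4, 16.01 and 15.5 CPM in Bnc1tr/tr (0.32 ± 0.14, adjusted p = 0.212).

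Cox7a1, the heart and muscle form, had 6.36, 6.71 and 7.04 CPM in WT and 3.27, 7.74 and 5.01 CPM in Bnc1tr/tr, on both sides of WT. Cox7a2, the common form, had 113 to 121 CPM in WT and 97.8 to 147 CPM in Bnc1tr/tr. Cox7a2l, a related protein described as a factor of supercomplexes of complexes III and IV, had 176, 214 and 192 CPM in WT and 241, 200 and 205 CPM in Bnc1tr/tr (0.15 ± 0.11). Its activity in this strain was not tested. Cox7b differed by 0.03 ± 0.12 on the log2 scale. None of these differences passed the test.

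**Figure D5:**
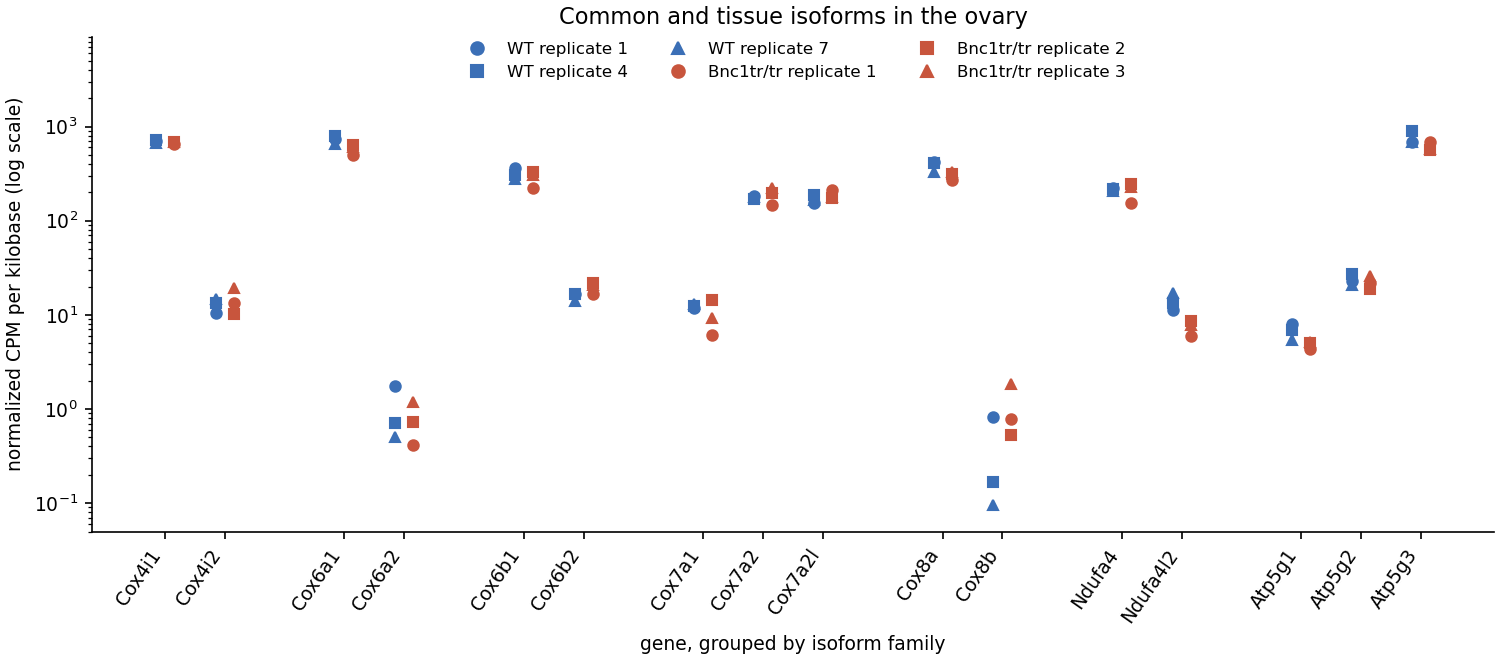
Normalized CPM per kilobase of merged exons, on a log scale, for the isoform families of the respiratory chain, with 1 point per ovary. In each cytochrome oxidase pair the common isoform (such as Cox4i1, with a mean of 698 in WT) lies well above the tissue isoform (Cox4i2, 12.95), and Ndufa4l2 is lower in every Bnc1tr/tr ovary than in any WT ovary.

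In complex V, 17 nuclear genes were tested and none was called by edgeR's quasi-likelihood test, with a median log2 fold change of -0.03. At an unadjusted p under 0.05, 5 were lower and 1 higher, beside 12.3% and 11.9% of all genes. The DESeq2 test called 2, Atp5f1 and Atp5g1, as lower, and it also called more of all genes, as given at the end. Of the 5 genes of the F1 head and central stalk, the catalytic part outside the membrane, Atp5a1, Atp5b and Atp5c1 were lower without overlap. Over all genes tested 15.8% were so. Atp5d and Atp5e, the small stalk subunits, differed by 0.02 ± 0.08 and 0.01 ± 0.10. Atp5b, the catalytic beta subunit and the nuclear member with the highest level per kilobase, had 1658, 1726 and 1614 CPM in WT and 1400, 1407 and 1506 CPM in Bnc1tr/tr (-0.21 ± 0.09, adjusted p = 0.190 by edgeR's quasi-likelihood test). Atp5a1, the alpha subunit, had 980, 999 and 932 CPM in WT and 778, 825 and 873 CPM in Bnc1tr/tr (-0.23 ± 0.09, adjusted p = 0.156).

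The c ring, which turns in the membrane, is made of one protein encoded by Atp5g1, Atp5g2 and Atp5g3. Atp5g3 had the highest level, at 756 CPM per kilobase in WT and 613 in Bnc1tr/tr, against 23.8 and 22.2 for Atp5g2. Atp5g1 had 39.3, 33.5 and 26.7 CPM in WT and 21.1, 24.9 and 25.6 CPM in Bnc1tr/tr, without overlap (-0.47 ± 0.15, adjusted p = 0.106). Atp5g3 had 494, 646 and 502 CPM in WT and 500, 412 and 419 CPM in Bnc1tr/tr, with overlap (-0.30 ± 0.13, adjusted p = 0.218). In the peripheral stalk, which holds the head still, Atp5f1 had 132, 174 and 135 CPM in WT and 103, 103 and 113 CPM in Bnc1tr/tr (-0.47 ± 0.12, adjusted p = 0.0585), whereas its partners Atp5h and Atp5o differed by 0.01 ± 0.09 and -0.003 ± 0.12.

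Atp5sl, counted with complex V by its name, carries that name by similarity and its protein acts in building complex I. It had 33.3, 32.1 and 31.5 CPM in WT and 42.8, 38.4 and 37.3 CPM in Bnc1tr/tr and was the only nuclear member higher without overlap (0.29 ± 0.09, adjusted p = 0.0905), and with library size alone in place of TMM it was called.

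Over all nuclear members, 25 were lower and 1 higher without overlap, where 15.8% of all genes tested were lower and 15.0% higher. At an unadjusted p under 0.05, 21 were lower and 1 higher, beside 12.3% and 11.9% of all genes. The count below 0 and the median moved with 1 ovary. The lowest of the 6 levels fell in Bnc1tr/tr replicate 1 for 53 of the 77 genes, and the highest fell in WT replicate 4 for 27 and in WT replicate 1 for 22. Without Bnc1tr/tr replicate 1, 40 of 77 genes had a log2 fold change below 0, with a median of -0.02, and Uqcrfs1 alone was called. That ovary also had the lowest corpus luteum marker sum, 7705 CPM, and the highest fat marker sum, 360 CPM against 17.1 to 94.0 CPM in WT and 41.4 to 261 CPM in the other Bnc1tr/tr ovaries. The part of either in the nuclear result was not tested.

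The scaling between libraries mattered as well. TMM factors were 0.958 to 0.978 in WT and 1.03 to 1.04 in Bnc1tr/tr. With library size alone, the median of all genes moved to 0.12 and that of the nuclear genes to -0.01, with 40 of 77 below 0, so the nuclear median lay 0.12 below that of all genes under both scalings.

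The promoters of the nuclear members were searched in the RefSeq promoter table of GRCm38.p6, from 250 bases before to 50 bases after the start, which held 66 of the 80 nuclear names, Cox7b2 among them. Nuclear respiratory genes are known targets of NRF1, of the ETS factor GABPA, of YY1 and of ERR alpha. GCATGCGC (NRF1) was found on either strand in 13.6% of these 66 promoters and 2.80% of all 27025 promoters, AAGATGGCG (YY1) in 10.6% and 1.49%, CCGGAAGT (GABPA) in 7.58% and 4.0%, and TNAAGGTCA (ERR alpha) in 3.03% and 1.26%. Of the called nuclear genes, Ndufs1 and Ndufa4l2 were not among these 66, so their promoters were not searched. The called Uqcrfs1 had none of these letters in its window. Its promoter is shown with that of Uqcr11, from the same complex, where capitals mark CCGGAAGT, and that of Ndufa11, where they mark GCATGCGC read on both strands with an overlap. Each is given 5′ to 3′ on the strand of its gene, up to the first base of the annotated transcripts. Uqcr11 also held GCATGCGC, across the RefSeq start and so outside the stretch shown. A match is a run of letters and not a binding site.
Uqcrfs1, chr13:30545363-30545566, minus strand: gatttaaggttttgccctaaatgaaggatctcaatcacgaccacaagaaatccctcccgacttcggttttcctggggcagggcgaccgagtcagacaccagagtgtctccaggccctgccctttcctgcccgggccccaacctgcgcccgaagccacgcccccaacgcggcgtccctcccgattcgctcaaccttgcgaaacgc
Uqcr11, chr10:80406831-80407071, minus strand: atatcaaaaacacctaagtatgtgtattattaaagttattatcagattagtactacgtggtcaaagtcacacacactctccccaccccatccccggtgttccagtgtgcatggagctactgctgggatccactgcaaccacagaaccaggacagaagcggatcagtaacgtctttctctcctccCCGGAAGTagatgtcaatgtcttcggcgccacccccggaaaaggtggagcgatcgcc
Ndufa11, chr17:56717512-56717761, plus strand: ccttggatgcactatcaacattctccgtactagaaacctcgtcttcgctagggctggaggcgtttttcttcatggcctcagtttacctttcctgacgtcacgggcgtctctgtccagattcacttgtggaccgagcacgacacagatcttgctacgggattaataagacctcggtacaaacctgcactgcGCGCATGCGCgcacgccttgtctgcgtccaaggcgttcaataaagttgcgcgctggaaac

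Ndufa11 had 61.5 to 77.5 CPM in WT and 59.6 to 63.8 CPM in Bnc1tr/tr, with overlap, and Uqcr11 had 131, 160 and 116 CPM in WT and 94.6, 113 and 114 CPM in Bnc1tr/tr, without overlap. Of the regulators that bear on these promoters and on mitochondrial growth, 21 were tested and 1 was called, where 7.06% of all genes were so. Of them, 4 were higher and 1 lower at an unadjusted p under 0.05, beside 11.9% and 12.3% of all genes. Esrrb, an orphan nuclear receptor related to ERR alpha, had 6.25, 6.83 and 4.31 CPM in WT and 18.4, 9.93 and 12.8 CPM in Bnc1tr/tr, 2.37-fold higher without overlap (log2 fold change 1.24 ± 0.26, adjusted p = 0.0340 by edgeR's quasi-likelihood test). Esrra, which encodes ERR alpha itself and is named after its values were seen, had 25.8, 26.6 and 27.1 CPM in WT and 17.4, 24.3 and 19.9 CPM in Bnc1tr/tr, lower without overlap and not called (-0.37 ± 0.13, adjusted p = 0.136).

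The genes that work with the respiratory chain were read from the same fit. Complex II, succinate dehydrogenase, has 4 genes, all nuclear. All 4 were below 0, with a median of -0.27, and none was called. Sdha, its flavoprotein, had 451, 495 and 482 CPM in WT and 379, 383 and 411 CPM in Bnc1tr/tr (-0.28 ± 0.08, adjusted p = 0.0852). None of 10 electron carrier and accessory genes and none of 13 coenzyme Q synthesis genes was called, with medians of -0.20 and -0.11. At an unadjusted p under 0.05, edgeR gave 2 lower in complex II, 2 lower among the carriers, and 2 lower and 1 higher in coenzyme Q synthesis. Over all genes, 12.3% were lower and 11.9% higher at that level. The DESeq2 test called 1 lower in complex II and 2 lower in coenzyme Q synthesis, and limma-voom called none in these lists.

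Of 15 complex I assembly genes, 1 was called, where 7.06% of all genes were so. This was Ndufaf7, a methyltransferase that modifies a core subunit. It had 40.5, 42.4 and 38.2 CPM in WT and 26.9, 27.3 and 30.7 CPM in Bnc1tr/tr, without overlap (-0.51 ± 0.09, adjusted p = 0.0187 by edgeR's quasi-likelihood test). Of 37 assembly genes of the other complexes, 1 was called, beside the same 7.06%. This was Cox15, an enzyme that makes the haem of complex IV, with 47.8, 54.0 and 50.1 CPM in WT and 37.5, 39.3 and 36.8 CPM in Bnc1tr/tr (-0.42 ± 0.08, adjusted p = 0.0271). Both assembly lists were mostly below 0, 10 of 15 and 31 of 37, with medians of -0.10 and -0.10.

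The machinery that reads and translates the mitochondrial DNA lay close to all other genes. Of 28 genes for mitochondrial transcription, replication and RNA handling none was called by edgeR's quasi-likelihood test and 1, as lower, by each of DESeq2 and limma-voom. At an unadjusted p under 0.05, 1 was lower and none higher, beside 12.3% and 11.9% of all genes, and the median was 0.03. Of 76 mitochondrial ribosomal protein genes 1 was called, beside 7.06% of all genes, and the median was -0.04. The called gene, Mrpl52, had 35.7, 33.7 and 36.6 CPM in WT and 43.5, 46.0 and 45.1 CPM in Bnc1tr/tr (0.34 ± 0.08, adjusted p = 0.0411). The 90 cytosolic ribosomal protein rows, many of which share reads with pseudogenes, had a median of 0.10. Rps3a1, Rps3a3 and Rps2 were called higher (0.47 ± 0.10, 0.53 ± 0.09 and 0.39 ± 0.08) and Rpl37a lower (-0.56 ± 0.12), beside 2.88% and 4.19% of all genes. The name pattern had also taken in 10 rows of S6 kinases, of which Rps6ka2, a signalling kinase, was called lower (-1.05 ± 0.08).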

How the data were processed

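Total RNA of mouse ovaries was made into single-end Ion Total RNA-Seq libraries and read on the Ion Proton. The authors deposited raw counts, whole reads per gene symbol, in 1 table of 44788 rows. The submitters' processing notes name mm10 and, with no role given, the pig build Sscrofa10.2, and which build the counts came from was not tested. The aligner, counter and use of strand are not given in the sources used here, so reads shared with pseudogenes, nuclear copies of mitochondrial DNA or overlapping genes may be split. WT (n = 3) and Bnc1tr/tr (n = 3) followed the labels. Counts were filtered (filterByExpr, minimum count 10), scaled by TMM and tested two-sided with edgeR 4.0.16 (R 4.3.3, quasi-likelihood test, Benjamini-Hochberg, threshold 0.05). DESeq2 1.42.0 and limma 3.58.1 served as alternatives. Standard errors follow from the fold change and the F statistic. Totals of 25247770 to 34406296 counts set the precision, and intervals for counts of 0 cover counting error only. Positions and merged exon lengths came from GENCODE (GRCm38). Members, lists and motifs were chosen with earlier results of these data known. Named were called members, the nuclear member highest per kilobase in each complex, the isoform families, all mitochondrial genes and called genes of each list. Other members were named after their values were seen.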

Additional observations from a re-analysis of the deposited data

How the results depend on the processing

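Medians of the nuclear and mitochondrial genes kept their sign under every alternative, at -0.16 to -0.01 and 0.21 to 0.42 on the log2 scale, as did ND3, Uqcrfs1, Ndufa4l2 and Ndufs1. With library size alone 1 nuclear gene, Atp5sl, was called higher and 2 mitochondrial genes, ATP6 and ND3, were called, and without the filter on low counts the latter number was also 2. The DESeq2 test called 2420 of all genes against 1372, 8 nuclear genes, all 8 lower, and 5 mitochondrial genes. With any 1 ovary dropped, the number called ranged from 320 to 1282 over all genes, from 0 to 2 over nuclear genes, all of them lower, and from 0 to 6 over mitochondrial genes. The lowest of each came without WT replicate 4, for the nuclear genes also without WT replicate 7 or Bnc1tr/tr replicate 3, and the causes were not tested. Cox4i1, Ndufa4 and Atp5g2, not called, changed sign with library size alone. Alternatives for the ratio of mitochondrial to nuclear counts were chosen after seeing the data and gave 1.26-fold to 1.39-fold. No paired analysis was possible because the labels give no litter or batch and the genotypes share only 1 replicate number. Low counts limit ND6, Cox6a2, Cox8b and the tRNA genes.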
